A study of Mus musculus with 4 samples.

Results

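The genes described here are 10 genes of macrophages. They comprise the scavenger and endocytic receptors Mrc1, Msr1 and Cd163, the alternative activation genes Chil3, Arg1 and Retnla, and the phagocyte genes Cd68, Lgals3, Gpnmb and Trem2. They were taken by name from the array annotation, keeping every probe set whose only gene symbol was a member. This gave 15 probe sets of 34945 with a single symbol, and 10 genes of 18193. Expression was measured on Affymetrix mouse genome arrays in the tibialis anterior muscle of the lower leg from mice of strain C57BL/6J. The 4 groups were mdx/MMP-2-/- at 3 months, mdx at 3 months, mdx/MMP-2-/- at 1 month and mdx at 1 month. All of them carried the mdx allele and so lacked dystrophin, which makes them a model of Duchenne muscular dystrophy. The mdx/MMP-2-/- mice also lacked matrix metalloproteinase 2, a secreted gelatinase. Each group had 1 array, so a pair of arrays gives a difference with no test, and "higher" and "lower" speak of those arrays alone. Whether RNA of several animals was pooled is not given in the sources used here, and no wild-type muscle was analysed here.

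Macrophages enter dystrophic muscle after fibre necrosis, clear debris and then support regeneration or fibrosis. The program known as alternative activation is induced by interleukin 4 and interleukin 13 through the transcription factor STAT6, and in mice Arg1, Chil3 and Retnla are its classical markers. Scavenger receptors bind modified lipoproteins, glycoproteins and haemoglobin complexes, whereas Gpnmb, Trem2, Lgals3 and Cd68 are known from phagocytes loaded with lipid or debris. None of these genes is exclusive to alternatively activated macrophages: Chil3 is also made by neutrophils and monocytes, and Retnla is also found in adipose tissue.

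RefSeq promoter windows (GRCm38.p6), from 250 bases before to 50 after the gene start, matched 8 of the 10 members. The 4 printed here, 5′ to 3′, belong to the member with the highest fold bound between genotypes (Chil3), to the members that hold a STAT6-type motif (Retnla and Lgals3), and to a scavenger receptor with a PU.1-type motif (Mrc1). Capitals mark the STAT6-type motif, which is TTC and GAA with 4 bases of any kind between them, and the PU.1-type motif GAGGAA or its reverse complement TTCCTC. Both strands were searched.
Chil3 (chr3:106167515-106167814, minus strand): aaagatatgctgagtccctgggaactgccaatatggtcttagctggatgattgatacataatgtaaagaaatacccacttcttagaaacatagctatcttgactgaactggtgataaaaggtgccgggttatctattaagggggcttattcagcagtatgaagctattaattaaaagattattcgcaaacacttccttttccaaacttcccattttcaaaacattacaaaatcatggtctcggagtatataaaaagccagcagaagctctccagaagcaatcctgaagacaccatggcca
Retnla (chr16:48842359-48842658, plus strand): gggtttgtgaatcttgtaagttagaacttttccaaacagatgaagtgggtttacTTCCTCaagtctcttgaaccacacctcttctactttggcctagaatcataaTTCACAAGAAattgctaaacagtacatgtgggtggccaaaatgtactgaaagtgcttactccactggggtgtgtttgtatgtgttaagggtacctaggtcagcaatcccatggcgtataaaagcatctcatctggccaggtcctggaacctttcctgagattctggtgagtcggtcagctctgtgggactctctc
Lgals3 (chr14:47373610-47373909, plus strand): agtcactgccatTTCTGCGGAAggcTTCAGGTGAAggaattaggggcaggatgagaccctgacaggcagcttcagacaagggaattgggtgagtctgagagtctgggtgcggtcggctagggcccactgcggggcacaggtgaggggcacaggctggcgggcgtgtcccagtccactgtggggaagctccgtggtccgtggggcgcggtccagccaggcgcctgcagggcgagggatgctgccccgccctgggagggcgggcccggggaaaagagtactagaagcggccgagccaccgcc
Mrc1 (chr2:14229164-14229463, plus strand): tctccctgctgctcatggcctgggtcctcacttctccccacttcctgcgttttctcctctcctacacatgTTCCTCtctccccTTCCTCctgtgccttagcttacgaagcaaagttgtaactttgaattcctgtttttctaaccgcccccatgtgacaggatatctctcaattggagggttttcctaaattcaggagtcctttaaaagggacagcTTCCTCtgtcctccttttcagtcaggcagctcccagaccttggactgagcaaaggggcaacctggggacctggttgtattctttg
The STAT6-type motif was found in 2 of 8 member windows, Lgals3 and Retnla, against 6.95% of 32851 windows of the same length. GAGGAA was found on either strand in 4 (Cd68, Mrc1, Retnla and Trem2), against 28.3%. The AP-1-type motif TGANTCA was found in 3 (Cd68, Gpnmb and Trem2), against 7.81%, and the E-box TCACGTGA in 0, against 0.974%. A match is a description of letters and not a binding site, and the window of Chil3 held none of the 4 motifs.

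Signals are MAS5 summaries in arbitrary units, quantile scaled over the 4 arrays. A floor of 17.4, the 50th percentile of all signals, was applied before differences were taken, and where 1 of 2 arrays was below it the fold is a lower bound, written as at least N-fold. Mmp2 read 40.9 and 24.7 in mdx/MMP-2-/- at 3 months and 1 month, against 805 and 985 in mdx at the same ages. Markers of skeletal muscle fibres had all 10 genes above the floor, and their summed signal lay between 134376 and 136969 on all arrays. Quantile scaling gives every array the same set of values, so sums of genes this bright are held close. They are not a measure of fibre content. Markers of macrophages and monocytes had all 20 measured genes above the floor, with summed signals of 20463 in mdx/MMP-2-/- and 14558 in mdx at 3 months, and of 17493 in mdx/MMP-2-/- and 19048 in mdx at 1 month. As a sign of RNA integrity, Actb probe sets at the 3' and 5' ends had a ratio of 2.09 in mdx/MMP-2-/- and 2.36 in mdx at 3 months, and of 1.05 in mdx/MMP-2-/- and 1.19 in mdx at 1 month. The same ratio for Gapdh was 0.935 in mdx/MMP-2-/- and 0.936 in mdx at 3 months, and 0.850 in mdx/MMP-2-/- and 0.883 in mdx at 1 month. The part of RNA integrity in the age differences was not tested. In bulk muscle, fewer cells of a type and less RNA per cell cannot be told apart.

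All 10 members exceeded the floor on at least 1 array through 12 of their 15 probe sets, and 8 of these did so on all 4 arrays. The highest signal lay in mdx/MMP-2-/- at 3 months for 7 of 10 members: Mrc1, Msr1, Chil3, Arg1, Cd68, Lgals3 and Gpnmb. Cd163 and Trem2 were highest in mdx/MMP-2-/- at 1 month and Retnla in mdx at 3 months. The lowest signal was in mdx at 3 months for 4 members (Mrc1, Arg1, Cd68 and Trem2), in mdx/MMP-2-/- at 1 month for Lgals3 and Gpnmb, and in mdx at 1 month for the rest.

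**Figure D1:**
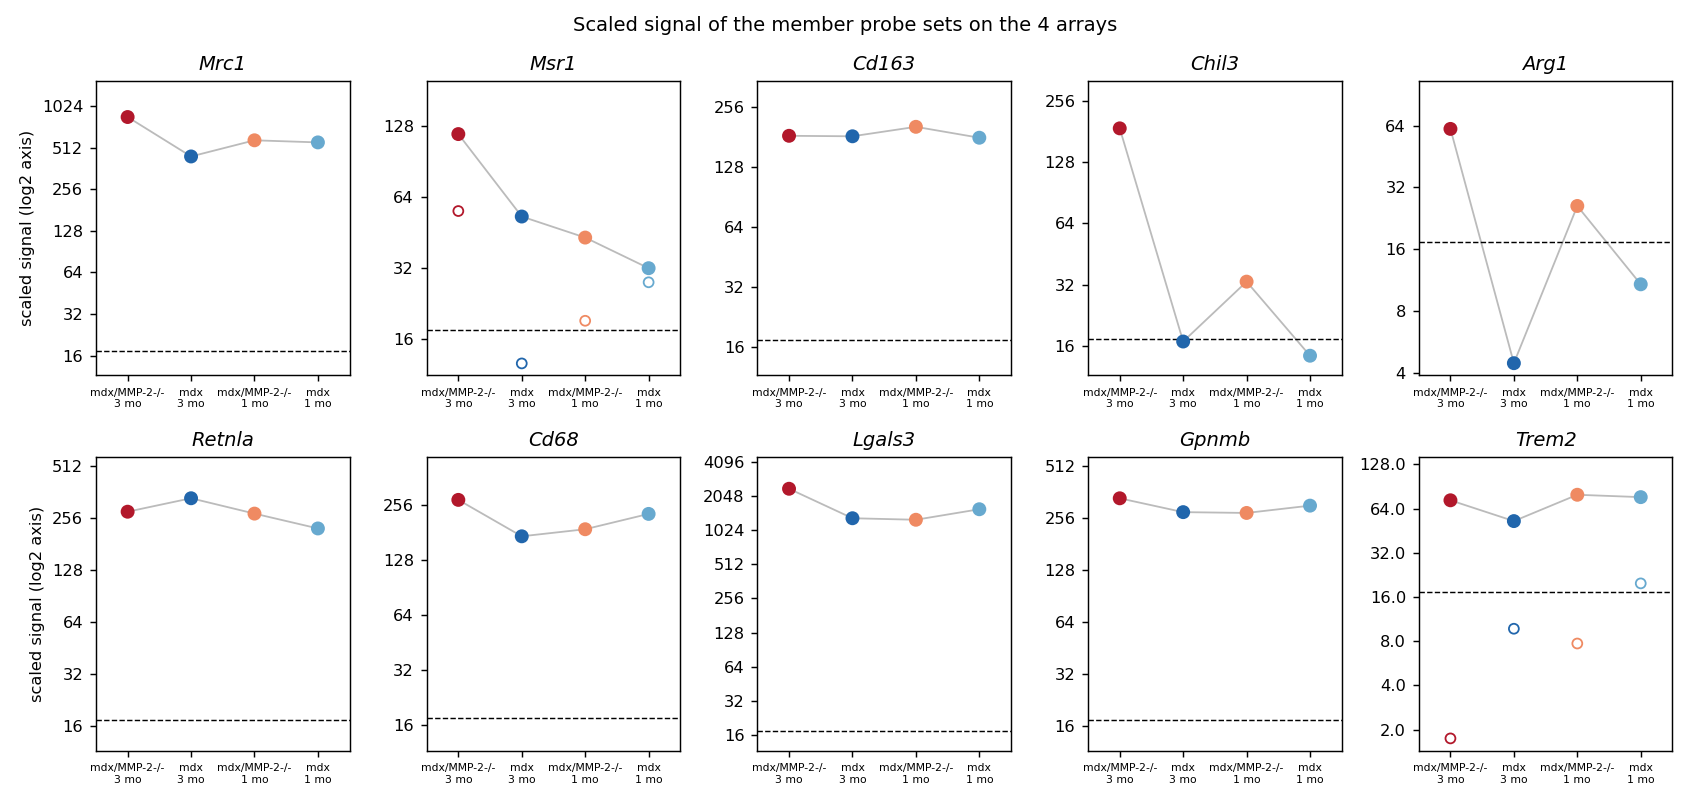
Scaled signal (log2 axis, arbitrary units) of each member on the 4 arrays. Filled points are the probe set that represents the gene, open points its other probe sets that exceed the floor on any array, and the dashed line is the floor of 17.4. Chil3 and Arg1 lie above the floor in both mdx/MMP-2-/- arrays and below it in both mdx arrays, while Cd163 is level across the arrays.

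The first comparison set the genotypes side by side at 3 months. In the mdx/MMP-2-/- array 9 of 10 members were higher than in mdx, with a median log2 difference of 0.76 (0.00 for all 12801 genes above the floor), in which lower bounds enter at their bound. Msr1, Chil3 and Arg1 were at or past 2-fold higher, 3 of 10 members, where 1.18% of all genes were. No member was past 2-fold lower, as were 0.422% of all genes. Cd163 hardly differed, and Retnla was the only member lower.

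Among the scavenger receptors, Mrc1, the macrophage mannose receptor (probe set 1450430_at), read 855 in mdx/MMP-2-/- and 443 in mdx at 3 months, and 580 in mdx/MMP-2-/- and 560 in mdx at 1 month. It was 1.93-fold higher at 3 months, whereas at 1 month the log2 difference was 0.05, and between -0.09 and 0.13 under other settings. Msr1, the class A scavenger receptor (1448061_at), read 118 in mdx/MMP-2-/- and 52.8 in mdx at 3 months, and 43.0 in mdx/MMP-2-/- and 31.9 in mdx at 1 month. It was 2.23-fold higher at 3 months. A further Msr1 probe set (1422062_at) read 55.7 in mdx/MMP-2-/- and 12.6 in mdx at 3 months, at least 3.19-fold higher, but 19.1 in mdx/MMP-2-/- and 27.8 in mdx at 1 month, where it lay opposite to the first. Its remaining 2 probe sets were below the floor on all arrays. With the mean of all Msr1 probe sets the log2 difference at 3 months was 0.71 in place of 1.16. Cd163, the receptor for haptoglobin-haemoglobin complexes (1419144_at), read 183 in mdx/MMP-2-/- and 182 in mdx at 3 months, and 203 in mdx/MMP-2-/- and 179 in mdx at 1 month. Its highest and lowest signals differed 1.13-fold, the narrowest span of the 10 members.

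The alternative activation genes did not share 1 direction. Chil3, a chitinase-like lectin also called Ym1 (1419764_at), read 187 in mdx/MMP-2-/- and 16.9 in mdx at 3 months, and 33.2 in mdx/MMP-2-/- and 14.4 in mdx at 1 month. It was at least 10.7-fold higher at 3 months, and both mdx arrays were below the floor. A probe set annotated to both Chil4 and Chil3 (1425451_s_at), outside the selection, read 55.1 in mdx/MMP-2-/- and 9.27 in mdx at 3 months, at least 3.16-fold higher, and 18.3 in mdx/MMP-2-/- and 21.9 in mdx at 1 month, where it lay opposite to the Chil3 probe set. Chil3 and Chil4 are close paralogs, so a signal of either could reach both probe sets and the level of Chil3 is uncertain. The probe set that represents Chil4 alone was at or below the floor on all 4 arrays.

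Arg1, arginase 1, which turns arginine into ornithine and urea (1419549_at), read 61.7 in mdx/MMP-2-/- and 4.46 in mdx at 3 months, and 26.0 in mdx/MMP-2-/- and 10.8 in mdx at 1 month. It was at least 3.54-fold higher at 3 months, again with both mdx arrays below the floor. The size follows the floor, at 1.03 on the log2 scale with the floor at the 60th percentile and 2.48 with it at the 40th. Retnla, a secreted resistin-like protein also called Fizz1 or Relm-alpha (1449015_at), read 280 in mdx/MMP-2-/- and 335 in mdx at 3 months, and 273 in mdx/MMP-2-/- and 224 in mdx at 1 month. It was 1.19-fold lower at 3 months and 1.22-fold higher at 1 month. Without scaling its log2 difference at 3 months was 0.18 in place of -0.26, where the median of all genes was 0.41. Over the scaled settings that difference ran from -0.28 to -0.20.

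The 4 phagocyte genes were all higher in mdx/MMP-2-/- at 3 months, by 1.20-fold to 1.82-fold, and none reached 2-fold. Lgals3, galectin 3, a lectin secreted by activated macrophages (1426808_at), read 2384 in mdx/MMP-2-/- and 1309 in mdx at 3 months, and 1269 in mdx/MMP-2-/- and 1572 in mdx at 1 month. It was 1.82-fold higher at 3 months, while at 1 month mdx/MMP-2-/- was 1.24-fold lower. Cd68, a late endosomal and lysosomal glycoprotein (1449164_at), read 272 in mdx/MMP-2-/- and 172 in mdx at 3 months, and 188 in mdx/MMP-2-/- and 228 in mdx at 1 month. It was 1.58-fold higher at 3 months and 1.21-fold lower at 1 month.

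Gpnmb, a transmembrane glycoprotein of lysosome-rich phagocytes (1448303_at), read 333 in mdx/MMP-2-/- and 277 in mdx at 3 months, and 274 in mdx/MMP-2-/- and 302 in mdx at 1 month, a 1.20-fold difference at 3 months. Its other probe set stayed below the floor. Trem2, a lipid-sensing receptor that signals through Tyrobp (1421792_s_at), read 72.9 in mdx/MMP-2-/- and 52.6 in mdx at 3 months, and 79.5 in mdx/MMP-2-/- and 76.6 in mdx at 1 month, a 1.39-fold difference at 3 months. Its other probe set (1421226_at) read 1.74 in mdx/MMP-2-/- and 9.72 in mdx at 3 months, both below the floor, so the direction for Trem2 rests on 1 probe set.

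**Figure D2:**
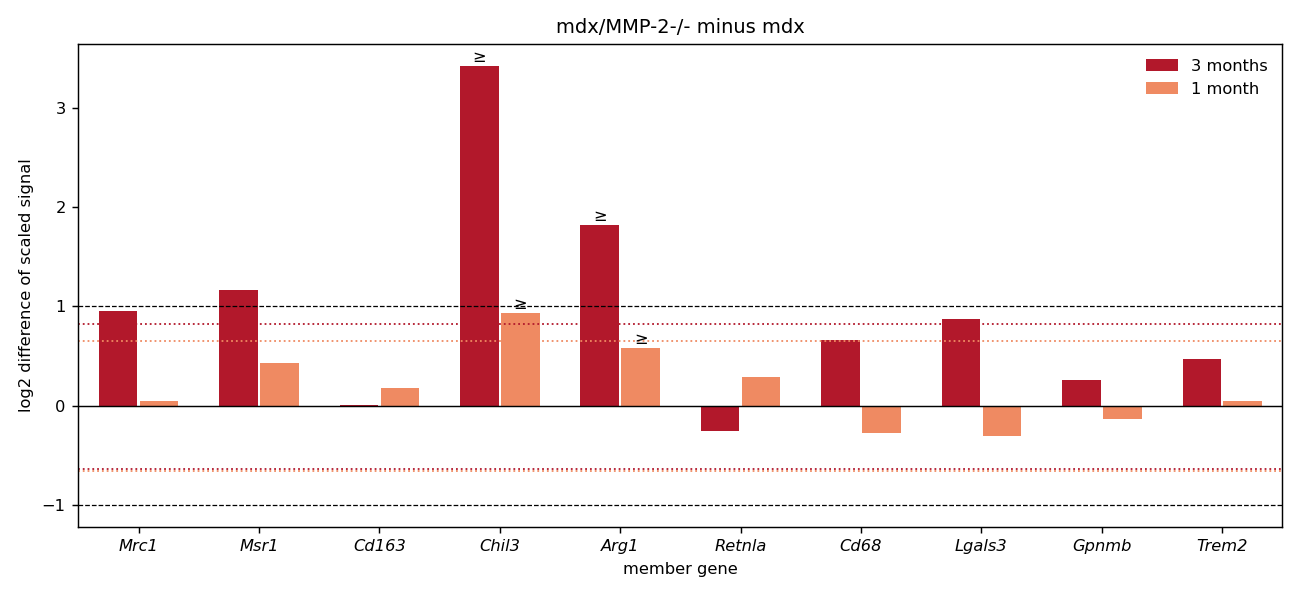
Log2 difference of scaled signal, mdx/MMP-2-/- minus mdx, for each member at 3 months and at 1 month; dashed lines mark 2-fold, dotted lines enclose the central 95% of 12801 genes, and ≥ marks a lower bound. At 3 months Mrc1, Msr1, Chil3, Arg1 and Lgals3 lie above the upper dotted line of 0.82, and at 1 month Chil3 alone lies above its line of 0.65.

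At 1 month the members showed no common direction. In mdx/MMP-2-/- 7 of 10 were higher and 3 (Cd68, Lgals3 and Gpnmb) lower than in mdx, with a median log2 difference of 0.11. No member reached 2-fold, where 0.570% of all genes were higher and 0.578% lower by that much. Chil3 was at least 1.90-fold and Arg1 at least 1.49-fold higher, both against mdx arrays below the floor, and Msr1 was 1.35-fold higher, but -0.03 on the log2 scale with the mean of its probe sets. Both bounds rest on the floor: with it at the 60th percentile the log2 differences were 0.14 for Chil3 and 0.00 for Arg1, and with it at the 40th Arg1 stood at 1.23.

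The genotype differences at both ages were compared for each member. The difference at 3 months exceeded that at 1 month for 8 of 10 members, with a median of 0.81 on the log2 scale. Chil3, Arg1 and Lgals3 (1.17) were past 2-fold, 3 of 10 members, where 2.91% of all genes were in that direction. For Chil3 and Arg1 both mdx arrays were below the floor, so theirs is 1 lower bound minus another and neither a measured size nor a bound. Over the scaled settings it ran from 2.15 to 2.63 for Chil3 and from 1.03 to 1.83 for Arg1. Cd68 (0.94) and Mrc1 (0.90) came next, and Retnla (-0.54) and Cd163 (-0.17) lay the other way. Cd163 stood at 0.20 without scaling, where the median of all genes was 0.31. In the opposite direction 1.69% of all genes and no member were past 2-fold.

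Macrophage and monocyte markers at 3 months were all higher in mdx/MMP-2-/- (20 of 20), their median being 0.54 and their range 0.16 (Mpeg1, named after its value was seen) to 1.20 (Ccr2, the chemokine receptor of recruited monocytes). Members within that range were Mrc1, Msr1, Cd68, Lgals3, Gpnmb and Trem2. For Gpnmb and Trem2 this depends on the setting: over the scaled settings their lowest values were 0.13 and 0.00, below the 0.16 of Mpeg1. Chil3 lay above the highest marker, and Cd163 and Retnla below the lowest. Arg1 also lay above it, but at 1.03 within the range with the floor at the 60th percentile. At 1 month 15 of 20 markers were lower in mdx/MMP-2-/-, with a median of -0.13. Msr1, Chil3 and Arg1 then lay above the highest marker, Cd14 at 0.38, but none of these placements is firm: Chil3 (0.14) and Arg1 (0.00) lay below 0.38 with the floor at the 60th percentile, and Msr1 (-0.03) with the mean of its probe sets. These lists share arrays with the members, so the values are placed side by side, and their part in the members' differences was not tested.

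Neutrophil markers also differed at 3 months, when 7 of the 9 genes above the floor were higher in mdx/MMP-2-/- and 1 lower. Past 2-fold higher were 4 of 9, where 1.18% of all genes were. Mpo was the gene that lay lower, at 11.8 in mdx/MMP-2-/-, below the floor, and 23.8 in mdx. S100a8 read 343 in mdx/MMP-2-/- and 35.9 in mdx, and S100a9 read 216 in mdx/MMP-2-/- and 20.2 in mdx, a 10.7-fold difference. The summed signal of 12 neutrophil markers was 830 in mdx/MMP-2-/- and 196 in mdx at 3 months, and 276 in mdx/MMP-2-/- and 275 in mdx at 1 month. Ltf, Cxcr2 and Elane of that list were at or below the floor on all 4 arrays. Since neutrophils also make Chil3, these values stand beside its own, and their part in it was not tested.

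Genes of the interleukin 4, interleukin 10 and STAT6 pathway had 15 of 19 measured members above the floor. At 3 months 11 were higher and 4 lower in mdx/MMP-2-/- (median 0.30), and at 1 month 7 were higher and 8 lower (median -0.11). The ligand genes Il4, Il13 and Il10 were at or below the floor on all arrays. Past 2-fold were Il4ra, the receptor chain for both ligands (81.9 in mdx/MMP-2-/- and 38.1 in mdx, 2.15-fold), and the kinase gene Jak3 (50.1 in mdx/MMP-2-/- and 13.4 in mdx, at least 2.87-fold). Both of these and Stat6 were named after their values were seen. Il13ra1, the partner chain of Il4ra for interleukin 13, was 1.61-fold higher, and Stat6, their transcription factor, read 276 in mdx/MMP-2-/- and 258 in mdx. Ppargc1b, a coactivator linked to oxidative metabolism of such macrophages, was 1.31-fold lower.

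Of 16 other genes used as marks of alternative activation 13 were higher at 3 months (median 0.30). Ccl24, which encodes the chemokine eotaxin 2, read 70.2 in mdx/MMP-2-/- and 7.85 in mdx, at least 4.02-fold higher, and alone of that list was past 2-fold. It was named after its values were seen. F13a1, coagulation factor XIII of macrophages, was 1.73-fold, the transglutaminase Tgm2 1.53-fold and Cbr2 1.30-fold higher. Of the 5 other probe sets of Tgm2, 1 lay the opposite way. Of 14 pro-inflammatory genes 10 were higher (median 0.56). Irf5, a transcription factor of inflammatory macrophages, was 1.72-fold higher with its other probe set opposite, and Nos2, Tnf, Il1a, Il12b, Il23a, Ptgs2, Cd80 and Ido1 were at or below the floor on all 4 arrays. The formyl peptide receptor gene Fpr2, named after its values were seen, was at least 2.37-fold higher.

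Of 17 other scavenger and uptake receptors 10 were higher and 7 lower at 3 months (median 0.16), and none was past 2-fold. Hmox1, the haem-degrading enzyme placed on this list, was 1.80-fold, Mrc2, a collagen receptor related to Mrc1, 1.59-fold and Stab1 1.53-fold higher. Of 24 partners of TREM2 with lysosomal and lipid genes 19 were higher (median 0.25). Plin2, a lipid droplet coat protein, read 616 in mdx/MMP-2-/- and 280 in mdx, 2.20-fold higher. Tyrobp, the adaptor of TREM2, read 902 in mdx/MMP-2-/- and 541 in mdx at 3 months, 1.67-fold higher, and 584 in mdx/MMP-2-/- and 767 in mdx at 1 month. Syk, the kinase downstream, was 2.32-fold higher with 1 of its 3 other probe sets opposite, and was named after its values were seen.

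Of 10 genes of arginine and polyamine metabolism beside Arg1, 5 were higher and 4 lower at 3 months (median 0.12). Spermidine synthase, Srm, was 1.88-fold and ornithine decarboxylase, Odc1, 1.47-fold higher in mdx/MMP-2-/-. Of the arginine transporter genes, Slc7a1 was 1.53-fold higher and Slc7a2 1.36-fold lower, with 1 of the 3 other Slc7a2 probe sets opposite. Arg2 was at or below the floor on all arrays. Of 7 galectins other than Lgals3, 2 were higher and 5 lower (median -0.04), with Lgals1 1.20-fold higher and Lgals9 1.17-fold lower.

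**Figure D3:**
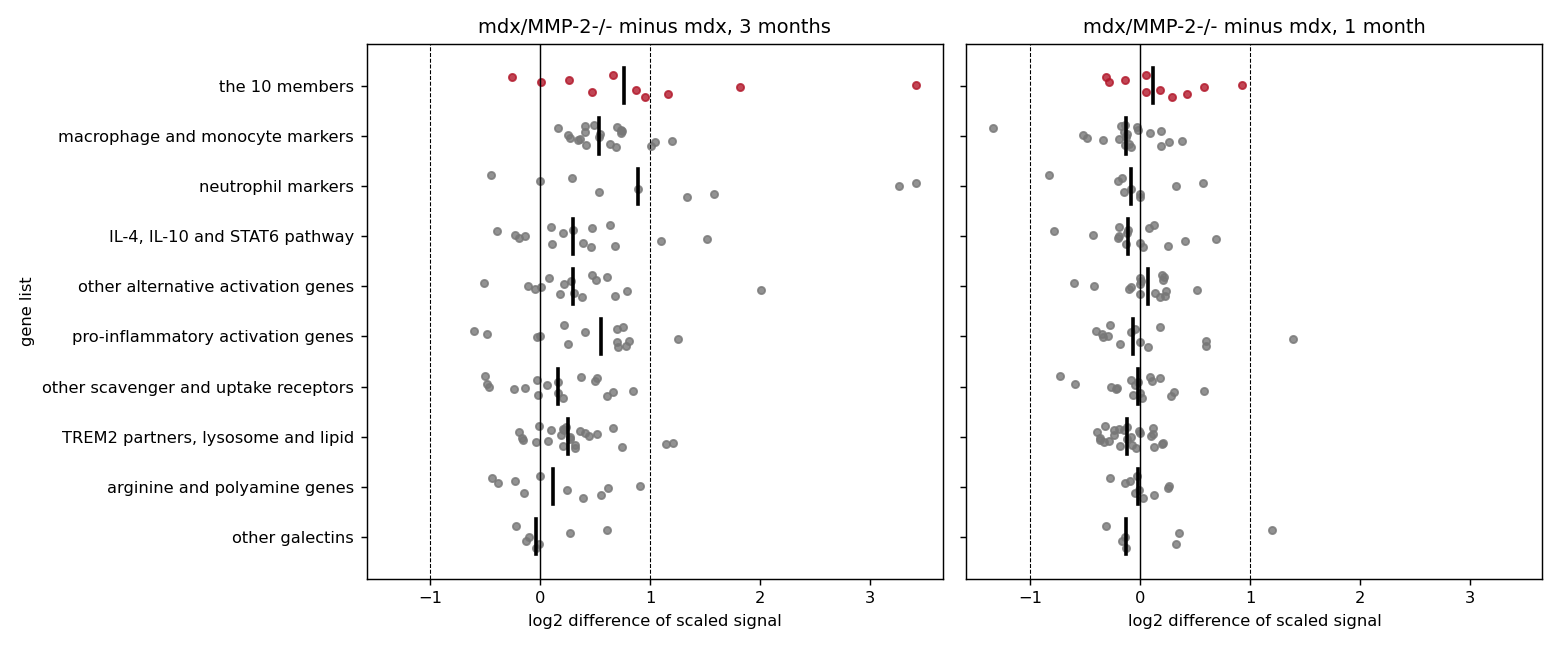
Log2 difference of scaled signal, mdx/MMP-2-/- minus mdx, at 3 months (left) and 1 month (right) for the 10 members and 9 gene lists. Points are genes above the floor on at least 1 array, those at the floor in both arrays are drawn at 0, black bars are medians and dashed lines mark 2-fold. At 3 months the medians are 0.76 for the members, 0.54 for macrophage and monocyte markers and 0.89 for neutrophil markers.

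The ages were then compared within mdx/MMP-2-/-. Of the 10 members, 8 were higher and 2 lower at 3 months (Cd163 and Trem2), with a median log2 difference of 0.55. Without scaling Cd163 and Trem2 stood at 0.14 and 0.08, where the median of all genes was 0.26. Chil3 was 5.64-fold, Msr1 2.74-fold and Arg1 2.37-fold higher, 3 of 10 members past 2-fold, where 1.47% of all genes were. Msr1 had a log2 difference of 1.45, or 0.75 with the mean of its probe sets. Lgals3 was 1.88-fold, Mrc1 1.47-fold and Cd68 1.45-fold higher at 3 months, and Retnla differed 1.02-fold. No member was past 2-fold lower, as were 1.22% of all genes. Of 20 macrophage and monocyte markers 18 were higher (median 0.29), and of 9 neutrophil markers 7 were (median 0.89). Their part in these differences was not tested.

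In mdx, several members lay the other way by age. All 4 phagocyte genes were lower at 3 months than at 1 month: Trem2 by 1.46-fold, Cd68 by 1.33-fold, Lgals3 by 1.20-fold and Gpnmb by 1.09-fold. Mrc1 was 1.26-fold lower, whereas Retnla was 1.49-fold higher. Msr1 was 1.66-fold higher, but 0.01 on the log2 scale with the mean of its probe sets. Chil3 and Arg1 were below the floor at both ages and have no fold. No member reached 2-fold in either direction, where 0.976% of all genes were higher and 1.55% lower by that much. The median over the members was -0.06 with those at the floor entered at 0. Of 20 macrophage and monocyte markers 18 were lower (median -0.29). The age comparisons share no array with each other, but each shares its arrays with the genotype differences.

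**Figure D4:**
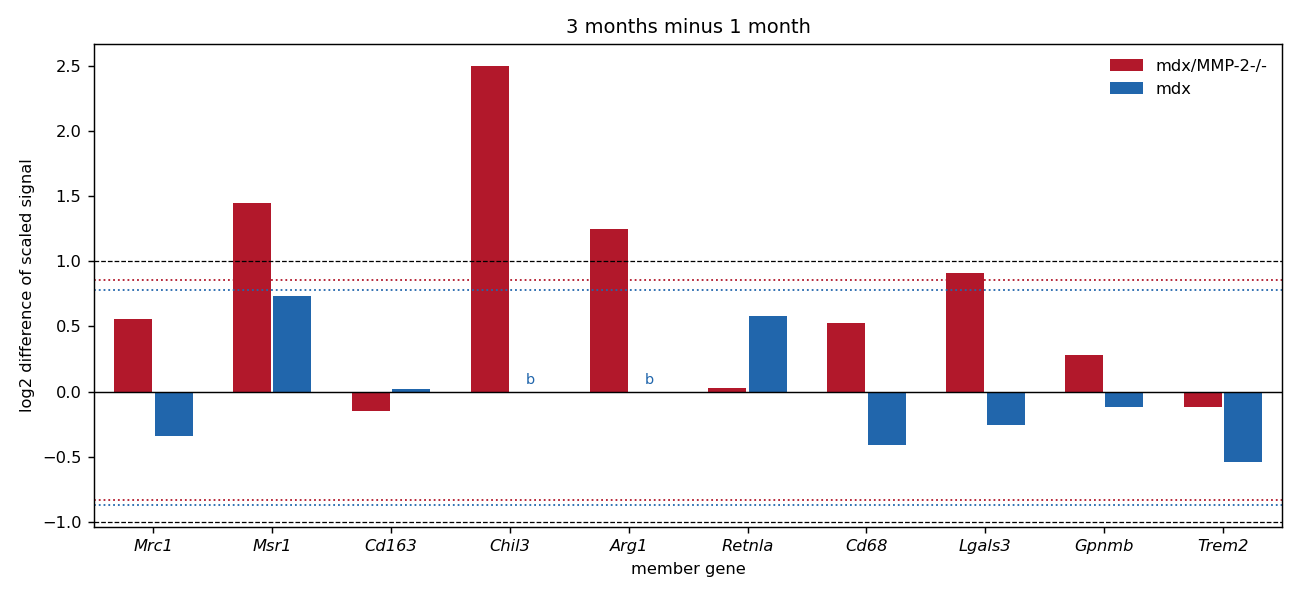
Log2 difference of scaled signal, 3 months minus 1 month, for each member in mdx/MMP-2-/- and in mdx; dashed lines mark 2-fold, dotted lines enclose the central 95% of 12801 genes, and b marks a gene below the floor at both ages. Chil3, Msr1 and Arg1 pass 2-fold in mdx/MMP-2-/-, and no member does in mdx.

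An additive model of genotype and age, fitted with limma over the 4 arrays, takes the departure from additivity as error and leaves 1 residual degree of freedom per gene. No member was called for genotype or for age at an adjusted p below 0.05, and neither was any gene (0% of 12801). Over all genes this count depended on the setting: for age, 130 genes were called with a variance prior that follows signal, 11 with median scaling and 79 without scaling, and for genotype 21 without scaling. For genotype the members' limma adjusted p lay between 0.982 and 0.999, and for age between 0.288 (Msr1) and 0.936. Unadjusted p was below 0.05 in limma for genotype in 3 members (Arg1 0.0173, Chil3 0.0181 and Msr1 0.0201), where 4.37% of all genes were. For age it was so in Msr1 (0.00618), where 13.7% of all genes were. For Arg1 and Chil3 both mdx signals entered the fit at the floor, so their estimates and errors depend on it. A genotype difference seen at 1 age only enlarges the error of this model. In the fit that called no gene, the deleted gene Mmp2 was not called for genotype either. A lack of calls there therefore does not show a lack of difference.

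The genes whose 4 values lay nearest to the median profile of the members, by Euclidean distance of centred log2 signals, were Tpd52, Stom, Pirb, Cyrib and Fen1, with distances of 0.03 to 0.07. The profile itself stood at 0.45 in mdx/MMP-2-/- and -0.29 in mdx at 3 months, and at -0.07 in both at 1 month. Pirb, an inhibitory receptor of myeloid cells, read 87.1 in mdx/MMP-2-/- and 51.5 in mdx at 3 months, and 62.8 in both at 1 month. With 4 values per gene, such likeness is a description and not evidence of a shared source.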

How the data were processed

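Total RNA of tibialis anterior from 4 groups, 1 array each, was labelled with biotin and hybridised, per the labels' protocols. The deposited values are intensity, summarised by the authors per probe set with MAS5 (Affymetrix Expression Console is named in the submitters' processing notes). No version or scaling target is given in the sources used here. Trimmed means of the deposited columns ranged from 90.4 to 122, so arrays were quantile scaled in limma 3.58.1 (R 4.3.3), as planned for signals without a common target. Of 45037 non-control probe sets, 34945 had 1 gene symbol, 932 several and 9160 none here; gene identifiers of 34741 matched the RefSeq gene table, which altered 0 symbols. Signals were floored at 17.4, put on the log2 scale, and each gene was represented by its probe set of highest mean, which left 12801 genes above the floor on any array. The number of arrays limits the precision.

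Differences carry no test, and genes at or past 2-fold were counted. The additive limma fit (lmFit, eBayes, Benjamini-Hochberg) was run on simulated data with purely additive effects and the same noise level for every gene. That run does not show how the fit performs on these arrays. The members and the 17 gene lists were chosen with earlier results of these data known. The rule for naming gave all members, Mmp2, the 5 nearest profiles and up to 4 genes per list. These list genes had the largest genotype difference at 3 months among those with a signal of at least 85.4 (the 75th percentile). Not every list gene that the rule gave is described. Genes named for any other reason (past 2-fold, at an end of a list's range, opposite differences, at the floor on all arrays) and Stat6 were chosen after their values were seen. Alternatives were median, cyclic loess and no scaling, a floor at the 60th or the 40th percentile, a pseudocount of 5.09, the mean of probe sets, no _x_at or _s_at probe sets, thresholds of 1.5 and 3, a variance prior that follows signal, and unadjusted p. A further setting, no scaling with the median of all genes subtracted, was added after the data were seen. It is included in the ranges over the scaled settings and in the counts of values that held. Python 3.11.15, pandas 2.3.3 and numpy 2.4.6 handled the tables.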

Additional observations from a re-analysis of the deposited data

Results flagged for a closer look

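The 10 members and all listed genes above the floor, 192 genes in all, were searched for differences of opposite sign, each at least 25% in size: by genotype between 3 months and 1 month, or by age between mdx/MMP-2-/- and mdx. There were 30 such pairs in 24 genes, and none was tested, since each rests on single arrays. The share of all genes above the floor with such a pair was not counted. Whether 24 of 192 is more than usual is therefore not known. Both contrasts use the same arrays, so the gap between paired values is by arithmetic the same in each. A gene with a pair in both contrasts thus shows the same gap again and not a further result. Values are log2 differences. Among the members, Mrc1 was higher at 3 months in mdx/MMP-2-/- (0.56) and lower in mdx (-0.34), and Cd68 likewise (0.53 in mdx/MMP-2-/- and -0.41 in mdx).

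Among macrophage and monocyte markers Spi1, which encodes PU.1, had the widest gap, which is the same gap in both contrasts. By genotype Spi1 stood at 1.04 at 3 months and -1.34 at 1 month. By age it stood at 1.5 in mdx/MMP-2-/- and -0.88 in mdx. Its only probe set read 60.4 in mdx/MMP-2-/- and 29.3 in mdx at 3 months. At 1 month it read 21.4 in mdx/MMP-2-/-, close to the floor, and 54.0 in mdx. Aif1 stood at 0.74 at 3 months and -0.48 at 1 month by genotype, and at 0.82 in mdx/MMP-2-/- and -0.40 in mdx by age. By genotype, Laptm5 stood at 0.73 at 3 months and -0.52 at 1 month and Fcgr1 at 0.70 at 3 months and -0.34 at 1 month. Of the 4 other probe sets of Laptm5, 1 lay the opposite way at 3 months. By age, Fcer1g stood at 0.61 in mdx/MMP-2-/- and -0.42 in mdx.

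Among the activation and phagocyte lists, Tyrobp stood at 0.74 at 3 months and -0.39 at 1 month by genotype, and at 0.63 in mdx/MMP-2-/- and -0.50 in mdx by age. Tgfb1, a fibrogenic growth factor, stood at 0.63 at 3 months and -0.78 at 1 month, and at 0.74 in mdx/MMP-2-/- and -0.68 in mdx. Tlr2, a receptor for bacterial lipoproteins, stood at 0.81 at 3 months and -0.34 at 1 month, and at 0.61 in mdx/MMP-2-/- and -0.54 in mdx. Tlr4, the endotoxin receptor, stood at 0.41 at 3 months and -0.35 at 1 month by genotype, with 1 of its 3 other probe sets opposite at 3 months.

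By age alone, Il4ra stood at 0.82 in mdx/MMP-2-/- and -0.47 in mdx, Syk at 0.38 in mdx/MMP-2-/- and -1.15 in mdx, and Srm at 0.43 in mdx/MMP-2-/- and -0.51 in mdx. Jak3 stood at 0.39 in mdx/MMP-2-/- and -0.88 in mdx, its mdx signal at 3 months being below the floor. Pparg ran the other way, at -0.37 in mdx/MMP-2-/- and 0.52 in mdx, as did Lgals12, at -0.51 in mdx/MMP-2-/- and 0.70 in mdx, with its mdx signal at 1 month below the floor.

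Of neutrophil markers by age, S100a8 stood at 2.20 in mdx/MMP-2-/- and -0.73 in mdx. S100a9 stood at 1.95 in mdx/MMP-2-/- and -0.90 in mdx, and Ngp at 0.76 in mdx/MMP-2-/- and -0.72 in mdx. In mdx at 3 months Ngp read 17.7 and S100a9 20.2, both close to the floor. Csf3r stood at 1.12 in mdx/MMP-2-/- and -0.66 in mdx, its mdx signal at 3 months being below the floor. Of tissue markers, the endothelial gene Cldn5 stood at -0.49 at 3 months and 0.43 at 1 month by genotype, and at -0.49 in mdx/MMP-2-/- and 0.42 in mdx by age. Myh3, the embryonic myosin gene, stood at 0.63 at 3 months and -0.58 at 1 month by genotype, and Myf5, a myogenic factor, at 0.46 in mdx/MMP-2-/- and -0.65 in mdx by age.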

How the results depend on the processing

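With 1 array per group no replicate could be left out, and no paired analysis was possible because each group holds 1 array. Msr1, Chil3 and Arg1 at or past 2-fold higher at 3 months remained so under 7 of 8 other scalings, floors and probe set rules; with the mean of probe sets Chil3 and Arg1 did. Without scaling, which put the median of all genes at 0.41 at 3 months, 6 members passed 2-fold there, 1 at 1 month, and 6 in the difference of genotype differences (5 with median scaling), and Chil3 was called for genotype in the additive limma fit (1 member, adjusted p = 0.00919; 0.974 to 0.999 was the lowest of any member under the other scalings, floors and probe set rules). In that difference 941 of 12872 genes were past 2-fold higher without scaling and 582 of 12801 with median scaling. At 1 month 1 member passed 2-fold higher with cyclic loess scaling, as did 78 of 12669 genes. With the floor at the 40th percentile 2 members did, as did 172 of 14702 genes. At 1.5-fold the counts of higher members were 6 by genotype at 3 months (6.12% of all genes), 1 by genotype at 1 month (3.52%), 4 by age in mdx/MMP-2-/- (7.41%) and 1 by age in mdx (5.97%). At 3-fold they were 2 by genotype at 3 months, Chil3 and Arg1 (0.156%), 0 at 1 month (0.0312%), 1 by age in mdx/MMP-2-/- (0.234%) and 0 by age in mdx (0.141%). In the additive fit, genes called for genotype numbered 1 with median scaling, cyclic loess scaling, the floor at the 60th percentile or the variance prior that follows signal and 21 without scaling. For age they numbered 11 with median scaling, 79 without scaling, 1 with the floor at the 60th percentile and 130 with that prior. With unadjusted p, 3 members were called for genotype and 1 for age. Of 171 counts and medians 158 held by the limits set, as did 440 of 450 single-member values, and no value at or past 2-fold changed sign. A count held if it was the same or within 1.5-fold of the count reported above. A log2 difference held if it shifted by at most 1.5-fold, and a change of sign in a smaller member value was not counted. At 1 month, shifts from 0.58 to 0.00 for Arg1 and from 0.43 to -0.03 for Msr1 therefore count as held. Over all genes, 855 were past 2-fold higher and 13 lower at 3 months without scaling (151 and 54 with quantile scaling), 131 and 35 at 1 month (73 and 74; 54 and 81 with median scaling), 466 and 92 by age in mdx/MMP-2-/- (188 and 156; 350 and 106 with median scaling) and 67 and 253 by age in mdx (125 and 198). Chil3 and Arg1 are dim in mdx, and their size depends on the floor: 2.63 and 1.03 at 3 months with the floor at the 60th percentile. The cause of the other shifts was not tested.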

Other observations

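Of eosinophil and mast cell markers 5 of 10 were above the floor, and Prg2, Epx, Ccr3, Il5ra and Ms4a2 were not. The summed signal of all 10 was 282 in mdx/MMP-2-/- and 303 in mdx at 3 months. Dendritic cell markers had 4 of 8 above the floor, with H2-Ab1 at 634 in mdx/MMP-2-/- and 633 in mdx at 3 months (both of its other probe sets opposite). T and NK cell markers had 1 of 9, with summed signals of 98.4 in mdx/MMP-2-/- and 102 in mdx, and B and plasma cell markers 4 of 6, with 173 in mdx/MMP-2-/- and 185 in mdx. None of these 4 lists held a gene past 2-fold between genotypes at either age.

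Among tissue cells at 3 months, fibroblast markers were higher in mdx/MMP-2-/- in 9 of 10 cases (median log2 difference 0.13), endothelial markers lower in 7 of 9 (median -0.20), and satellite and regenerating fibre markers higher in 6 of 8 (median 0.25). Skeletal muscle fibre markers had a median of -0.02, but quantile scaling holds genes this bright close between arrays. No gene of these 4 lists was past 2-fold at 3 months.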
